A study of Homo sapiens with 18 samples.

Results

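The genes described here encode the lysosome and the autophagy machinery. A list of 45 genes was set against the gene symbols of the array, and 29 of the 45 had a named feature, each with 1 feature, among 53617 features on the array and 16098 with a symbol. All 29 passed the filter on low features, which kept 29855 features in all. The other 16 were not analysed here: GLA, GLB1, GAA, NPC1, NPC2, GUSB, SMPD1, ATP6V0D1, ATP6V1A, ATP6V1H, ATP6V1B2, BECN1, ATG4B, WIPI1, WIPI2 and NBR1. The proton pump is therefore without any measured member, and most glycosidases are missing too.

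The lysosome is an acidic organelle in which hydrolases break down protein, glycans and lipids, and its products leave through transporters of the membrane. Autophagy delivers cytoplasmic cargo to it: the ULK1 kinase starts the process, a lipid kinase complex nucleates a membrane, and a conjugation system attaches proteins of the ATG8 family to that membrane, where cargo receptors bind them. TFEB and TFE3 are transcription factors that raise many of these genes when they enter the nucleus, and the kinase mTORC1 at the lysosome keeps them in the cytoplasm. Antisense oligonucleotides are taken up by endocytosis, and much of what enters a cell is held in endosomes and lysosomes.

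The treated arrays came from SKBR3 cells given an antisense oligonucleotide (ASO) against the lncRNA LINC01269, and from the lines MDA-MB-231 and MDA-MB-468 after an ASO against the lncRNA AL078604.2. Each was set against cells of the same line given a control ASO, with 3 arrays in each of 6 groups. All groups, controls included, received GapmeRs, which recruit RNase H to their target RNA, at 15 nM for 48 h with the transfection reagent TransIT-BrCa. Uptake of an ASO and exposure to the reagent are thus shared by both groups of a line, and cells without an ASO were not analysed here. SKBR3 is an established HER2-positive breast cancer line, and the others are established triple-negative lines. The design names a single ASO (ASO1) for AL078604.2, at this dose and time only. The labels do not say whether replicates were separate cultures, so p-values measure the spread between these arrays. That spread was pooled over all 6 groups, so a gene's SE is the same in each line and not that line's own. Neither lncRNA had a named feature, so the loss of the target was not measured here.

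Marker genes of the control arrays matched the line labels only in part, and lines are called here as labelled. EPCAM, which MDA-MB-231 cells hold at low level, ranked at the 99.2 percentile of features in control arrays labelled MDA-MB-231, beside 98.9 for SKBR3 and 99.3 for MDA-MB-468. The mesenchymal gene VIM ranked at 76.7, 76.3 and 82.4 in the same order. With the labels, the mesenchymal genes AXL and ZEB1 ranked highest in MDA-MB-231 (83.2 and 45.9, beside 60.3 and 33.3 in MDA-MB-468), though SKBR3 was close at 80.9 and 43.8. The basal keratin KRT5 ranked highest in MDA-MB-468 (85.8, beside 73.6 in MDA-MB-231 and 69.8 in SKBR3). EGFR, another marker of MDA-MB-468, ranked at 98.7 there, at 98.2 in MDA-MB-231 and highest in SKBR3, at 99. CD44, a marker of MDA-MB-231, ranked at 98.3 there, beside 97.2 in SKBR3 and 98 in MDA-MB-468. RB1, which MDA-MB-468 cells lack, ranked lowest there, at 24.9, beside 60.5 and 48.0. ERBB2, the gene that defines HER2-positive cells, had no named feature, and its chromosomal neighbour GRB7 ranked at 79.2 in SKBR3, beside 81.3 in MDA-MB-231 and 78.9 in MDA-MB-468. The luminal genes KRT8, KRT18, KRT19, FOXA1 and SPDEF ranked within 4 percentile points of each other across the lines. Of 11 markers of leukocytes, fibroblasts and endothelium, 5 had a feature: DCN lay at or under the 6.33 percentile, and the highest, CD68, which is also a lysosomal membrane protein of other cells, reached 84.1. Array medians differed between lines (4.56 to 4.63 in SKBR3, 5.41 to 5.43 in MDA-MB-231, 5.21 to 5.24 in MDA-MB-468), so levels were compared within a line unless said otherwise. Replicate arrays correlated at 0.978 to 0.991 across the 29855 features that passed the filter.

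Transcript levels of lysosome and autophagy genes differed little between anti-lncRNA and control ASO in any line. The 95% interval of the log2 difference lay within 1.5-fold either way for 28 of 29 genes in SKBR3 (the exception was UVRAG), for 27 of 29 in MDA-MB-231 (all but MAP1LC3B and GABARAPL1) and for 28 of 29 in MDA-MB-468 (all but MAP1LC3B). The same held for 81.8%, 83.0% and 82.6% of all features tested. Among tested features with a symbol, which all members have, it held for 91.6%, 91.2% and 91.4%, nearer to the members. No member passed an adjusted p of 0.05 in limma's moderated test within a line. Over MDA-MB-231 and MDA-MB-468 together, 1 member passed on the mean of both responses: MAP1LC3B, which encodes the autophagosome protein LC3B, rose by a log2 difference of 0.40 ± 0.0968 (SE, 95% interval 0.20 to 0.61, adjusted p = 0.0464).

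Counts of smaller shifts are set beside those of all features. In SKBR3, 0 of 29 members passed, as did 0% of 29855 features. There, 0 members lay higher and 2 lower at an unadjusted p under 0.05, against 5.37% of features higher and 3.79% lower, so 6.9% of members against 9.16% in all. In MDA-MB-231, 0 members passed, against 0.0971% of features that rose and 0.0737% that fell (0.171% in all). There, 6 members lay higher and 1 lower at an unadjusted p under 0.05 (24.1%), against 4.9% and 4.45% of features (9.35% in all). In MDA-MB-468, 0 members passed, against 0.0067% of features, all of which rose. At an unadjusted p under 0.05, 2 members lay higher and 6 lower (27.6%), against 5.25% and 5.24% of features (10.5% in all). For the mean of both responses, 1 of 29 passed, against 1.6% of features (0.703% higher and 0.898% lower). The unadjusted counts for the mean were 7 higher and 6 lower (44.8%), against 7.54% and 7.05% (14.6% in all). Features with a symbol reached 11.5%, 12.2% and 17.4% for the same counts in MDA-MB-231, in MDA-MB-468 and on their mean. The median over the members was 0.0003 in SKBR3, 0.0013 in MDA-MB-231 and -0.024 in MDA-MB-468, beside 0.014, 0.010 and -0.0035 over all features.

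**Figure D1:**
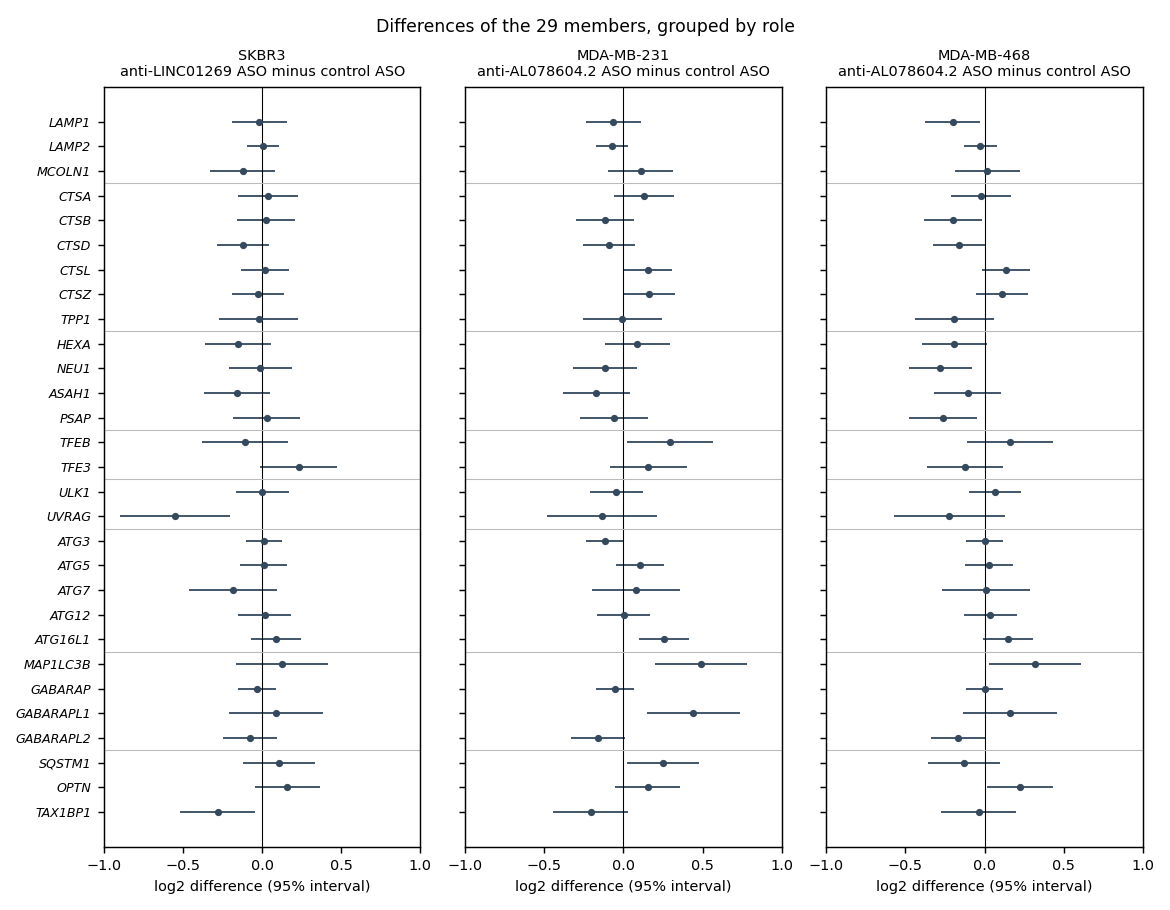
Log2 difference (anti-lncRNA ASO minus control ASO) of all 29 measured genes in each line, ordered by role, with 95% intervals from limma. Most intervals cross 0, and MAP1LC3B is the furthest above 0 in both MDA-MB-231 (0.49) and MDA-MB-468 (0.32).

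The transcription factor TFEB (feature 17019077) was a dim feature near the median of its arrays. It read 5.70, 5.88 and 5.56 on the log2 scale in the anti-AL078604.2 arrays of MDA-MB-231, against 5.16, 5.55 and 5.54 in control arrays, a difference of 0.29 ± 0.128 (SE, adjusted p = 0.474). The groups did not overlap, although the lowest anti-AL078604.2 array and the highest control array were nearly level, and the difference was 0.16 without control replicate 1. The MDA-MB-468 values were 5.62, 5.41 and 5.48 in anti-AL078604.2 arrays, against 5.17, 5.38 and 5.48 in control arrays (0.16 ± 0.128, adjusted p = 0.725). In SKBR3 it read 4.61, 4.45 and 4.47 in anti-LINC01269 arrays, against 4.56, 4.69 and 4.61 in control arrays (-0.11 ± 0.128, adjusted p = 0.841). The arrays of both these lines overlapped.

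TFE3 (feature 17110745), a close relative of TFEB, read 8.37, 8.08 and 8.31 in anti-LINC01269 arrays of SKBR3, against 8.02, 8.04 and 8.00 in control arrays (0.23 ± 0.115, adjusted p = 0.571). In MDA-MB-231 it read 8.98, 8.83 and 8.80 in anti-AL078604.2 arrays, against 8.64, 8.75 and 8.75 in control arrays (0.16 ± 0.115, adjusted p = 0.759). All anti-lncRNA arrays lay above all control arrays in both of these lines. The MDA-MB-468 values were 8.37, 8.04 and 7.76 in anti-AL078604.2 arrays, which lay on both sides of the control arrays at 8.15, 8.22 and 8.18 (-0.12 ± 0.115, adjusted p = 0.772), and the sign turned to 0.024 without replicate 3 of the anti-AL078604.2 arrays. None of these shifts passed the test.

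Lysosomal membrane genes were measured for 3 of 4 members. LAMP1 and LAMP2 are the abundant glycoproteins that line the membrane, and MCOLN1 encodes its calcium channel. LAMP1 (feature 16776856) read 10.08, 9.89 and 9.80 in anti-AL078604.2 arrays of MDA-MB-468, against 10.00, 10.14 and 10.23 in control arrays, a difference of -0.20 ± 0.0819 (adjusted p = 0.403). The groups overlapped at 1 array, replicate 1 of the anti-AL078604.2 arrays. LAMP1 differed by -0.064 in MDA-MB-231 and by -0.019 in SKBR3. LAMP2 differed by at most 0.070 in size in any line, and its intervals were among the narrowest of the list (SE 0.0481). MCOLN1 differed by 0.11 in MDA-MB-231, 0.016 in MDA-MB-468 and -0.12 in SKBR3, with adjusted p of 0.744 or more.

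All 6 lysosomal proteases were measured, and none passed in any comparison. CTSL (feature 17086540), a cysteine protease, read 7.93, 8.07 and 8.04 in anti-AL078604.2 arrays of MDA-MB-231, against 7.85, 7.86 and 7.86 in control arrays (0.15 ± 0.0712, adjusted p = 0.516). In MDA-MB-468 it read 7.26, 7.18 and 7.20 in anti-AL078604.2 arrays, against 7.00, 7.13 and 7.11 in control arrays (0.13 ± 0.0712, adjusted p = 0.537). Its groups did not overlap in either line, and the mean of both responses was 0.14 ± 0.0503 (adjusted p = 0.172). CTSZ, a carboxypeptidase, differed by 0.16 in MDA-MB-231 and 0.11 in MDA-MB-468. Against these, CTSB, another cysteine protease, differed by -0.12 and -0.20 in the same lines, and the aspartic protease CTSD by -0.091 and -0.16. CTSA, which protects neuraminidase and is itself a carboxypeptidase, differed by 0.13 and -0.024, and the tripeptidyl peptidase TPP1 by -0.0059 and -0.19. Cathepsin transcripts thus lay on both sides of 0 within each line, and in SKBR3 the 6 ranged only from -0.12 to 0.038.

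Of the glycosidases, lipid hydrolases and cofactors, 4 of 10 were measured. All 4 lay below 0 in MDA-MB-468, with a median of -0.23, and none passed. Of all features tested there, 15199 of 29855 lay below 0, with a median of -0.0035. All 4 genes stayed below 0 with each array left out in turn (medians -0.28 to -0.19). The 4 were read from the same arrays, so their signs are not independent. NEU1 (feature 17017495), the lysosomal sialidase, read 8.87, 8.95 and 8.62 in anti-AL078604.2 arrays of MDA-MB-468, against 9.05, 9.11 and 9.12 in control arrays (-0.28 ± 0.0943, adjusted p = 0.318). Every anti-AL078604.2 array lay below every control array, and the difference was -0.18 without replicate 3 of the anti-AL078604.2 arrays. PSAP (feature 16715241), the precursor of the saposins that present lipids to their hydrolases, read 10.92, 10.67 and 10.62 in anti-AL078604.2 arrays, against 10.88, 11.02 and 11.10 in control arrays (-0.26 ± 0.101, adjusted p = 0.369). Replicate 1 of the anti-AL078604.2 arrays lay among the controls. HEXA, a subunit of beta-hexosaminidase, differed by -0.19 and ASAH1, acid ceramidase, by -0.11. In MDA-MB-231 the 4 differed by 0.088 (HEXA), -0.12 (NEU1), -0.17 (ASAH1) and -0.060 (PSAP). In SKBR3 they differed by -0.15 (HEXA), -0.012 (NEU1), -0.16 (ASAH1) and 0.028 (PSAP).

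**Figure D2:**
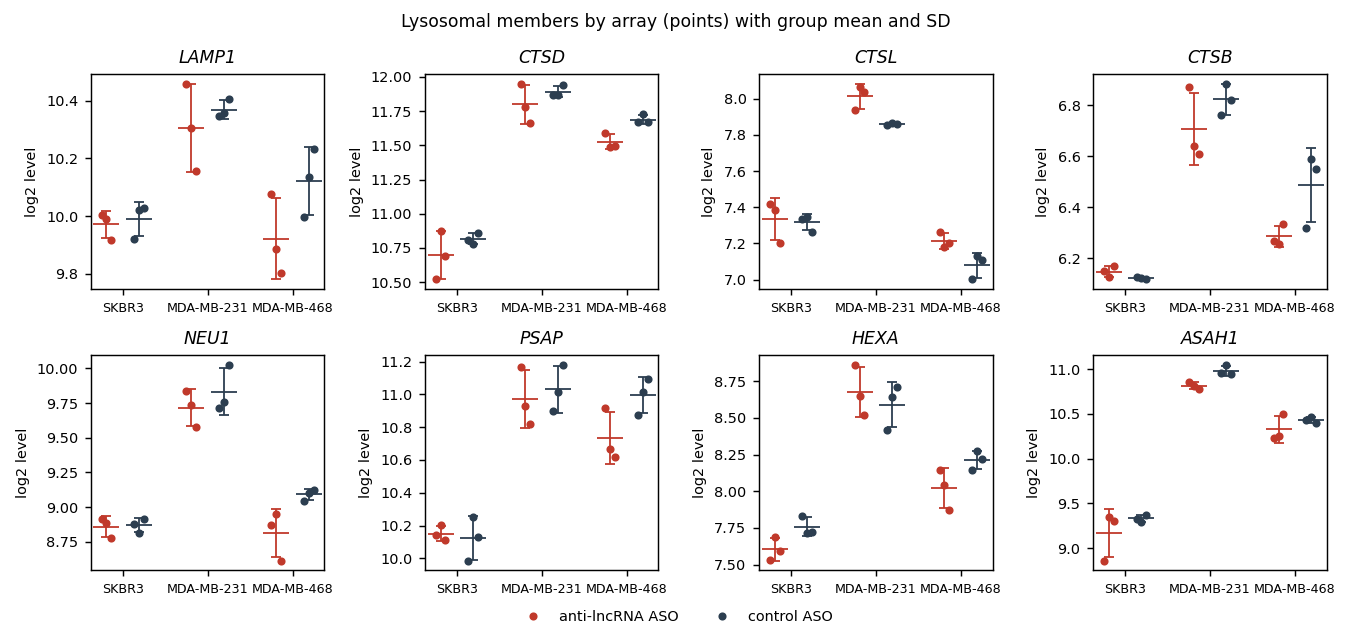
Log2 level of 8 lysosomal genes in each of 18 arrays (points), with group mean and SD (n = 3 per group), anti-lncRNA ASO left of control ASO in each line. In MDA-MB-468, all anti-AL078604.2 arrays of NEU1 and CTSD lie below and those of CTSL above all control arrays, with group means that differ by -0.28, -0.16 and 0.13.

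The promoters of several of these genes carry the E-box CACGTG, the core of the CLEAR element to which TFEB and TFE3 bind. The 250 bases before the annotated start were read from RefSeq promoters of GRCh38.p14, which held 23 of the 29 measured genes. CACGTG, a palindrome and so the same on both strands, occurred in 6 of the 23 (26.1%), against 7.73% of 27305 genes. Those are all genes with a promoter there, whether or not the array measured them, and the shares were not tested against each other. The 7-letter form TCACGTG, or CACGTGA on the other strand, contains it and occurred in 6 of 23 (26.1%), against 4.02%. The 6 were ATG3, CTSA, CTSD, LAMP1, MCOLN1 and NEU1, which belong mostly to the lysosome. LAMP1 has 5 copies, CTSA and MCOLN1 have 2 each, and the others have 1. Shown are the promoters of LAMP1, NEU1 and MCOLN1, and that of MAP1LC3B, which has no such match, with CACGTG in capitals and the sense strand 5′ to 3′. They lie at chr13:113296989-113297238 on the plus strand (LAMP1), chr6:31862822-31863071 on the minus strand (NEU1), chr19:7522374-7522623 on the plus strand (MCOLN1) and chr16:87392086-87392335 on the plus strand (MAP1LC3B).
LAMP1: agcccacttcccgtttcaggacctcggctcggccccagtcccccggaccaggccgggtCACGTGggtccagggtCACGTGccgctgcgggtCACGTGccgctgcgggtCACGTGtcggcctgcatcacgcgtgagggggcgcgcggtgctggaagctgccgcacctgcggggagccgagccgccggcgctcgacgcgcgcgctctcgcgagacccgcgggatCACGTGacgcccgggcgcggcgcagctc
NEU1: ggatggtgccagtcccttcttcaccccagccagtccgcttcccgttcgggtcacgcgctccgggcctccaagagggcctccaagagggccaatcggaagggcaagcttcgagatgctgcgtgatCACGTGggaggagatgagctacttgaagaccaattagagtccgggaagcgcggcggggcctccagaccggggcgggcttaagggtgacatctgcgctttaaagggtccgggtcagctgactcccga
MCOLN1: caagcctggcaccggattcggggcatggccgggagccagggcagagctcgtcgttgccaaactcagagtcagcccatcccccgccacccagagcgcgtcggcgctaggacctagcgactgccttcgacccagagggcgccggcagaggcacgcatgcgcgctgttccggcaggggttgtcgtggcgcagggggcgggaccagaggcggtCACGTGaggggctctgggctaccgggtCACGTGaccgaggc
MAP1LC3B: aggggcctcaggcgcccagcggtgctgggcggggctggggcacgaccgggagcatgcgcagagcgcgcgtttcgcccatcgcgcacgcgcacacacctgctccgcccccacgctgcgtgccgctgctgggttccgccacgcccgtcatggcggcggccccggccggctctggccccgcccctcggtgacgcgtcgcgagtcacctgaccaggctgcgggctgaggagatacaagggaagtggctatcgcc

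Genes with and without the E-box are described by their medians only. The 6 genes with CACGTG had a median log2 difference of -0.077 in MDA-MB-231, -0.093 in MDA-MB-468 and -0.016 in SKBR3. The 17 without it had medians of 0.15, 0.037 and 0.0091. Of the 6 with CACGTG, 4 lay below 0 in each line. The 17 were mostly autophagy genes, so the groups differ in role as well. LAMP2, CTSB, HEXA, ASAH1, PSAP and UVRAG had no promoter sequence and are in neither group. All of these lay below 0 in MDA-MB-468, as did all but HEXA in MDA-MB-231, and they lay on both sides of 0 in SKBR3. A match of letters is not evidence of binding in these cells, which was not measured.

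Genes that start and nucleate autophagosomes were measured for 2 of 5 members. ULK1, the initiating kinase, differed by 0.0003 in SKBR3, -0.044 in MDA-MB-231 and 0.066 in MDA-MB-468. UVRAG (feature 16729188), a subunit of the class III lipid kinase complex, read 7.60, 8.56 and 7.84 in anti-LINC01269 arrays of SKBR3, against 8.58, 8.52 and 8.56 in control arrays. The difference was -0.55 ± 0.165 (adjusted p = 0.384), the widest of the list in that line. This SE pools all groups, while the SD of UVRAG was 0.497 in the anti-LINC01269 arrays and 0.03 in their controls. Replicate 2 of the anti-LINC01269 arrays lay level with the controls, and the other arrays lay well below them. Omission of single arrays gave differences of -0.83 to -0.35, with 1 of 6 fits passing. The difference was -0.83 (adjusted p = 0.00142) without replicate 2 and -0.35 (adjusted p = 0.837) without replicate 1. The omission of replicate 2 also moved the number of features called in SKBR3 to 231, against 0 with all arrays. UVRAG differed by -0.13 in MDA-MB-231 and -0.22 in MDA-MB-468, with adjusted p of 0.895 and 0.689.

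The conjugation machinery was measured for 5 of 6 members. ATG16L1 (feature 16892485), which places the conjugation enzyme on the membrane, read 8.53, 8.36 and 8.39 in anti-AL078604.2 arrays of MDA-MB-231, against 8.10, 8.15 and 8.26 in control arrays (0.26 ± 0.0744, adjusted p = 0.192). Values in MDA-MB-468 were 8.11, 7.89 and 7.97 in anti-AL078604.2 arrays, against 7.81, 7.80 and 7.92 in control arrays (0.15 ± 0.0744, adjusted p = 0.513). The groups were apart in MDA-MB-231 and overlapped in MDA-MB-468, and the mean of both responses was 0.20 ± 0.0526 (adjusted p = 0.0644). The difference in SKBR3 was 0.086. ATG3, the enzyme that transfers ATG8 proteins to lipid, lay below its controls in MDA-MB-231 (-0.12, adjusted p = 0.531) and differed by 0.0001 in MDA-MB-468. ATG7, the activating enzyme, and ATG5 and ATG12, which it helps to join to each other, differed by 0.0013 to 0.10 in both of these lines, and ATG7 differed by -0.19 in SKBR3 (adjusted p = 0.708).

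The ATG8 family, the proteins that are attached to autophagosome membranes, held the widest differences of the list in MDA-MB-231 and MDA-MB-468. MAP1LC3B (feature 16821697) read 6.03, 6.05 and 6.39 in anti-AL078604.2 arrays of MDA-MB-231, against 5.84, 5.53 and 5.63 in control arrays (0.49 ± 0.137, adjusted p = 0.175). In MDA-MB-468 it read 5.95, 5.72 and 5.92 in anti-AL078604.2 arrays, against 5.65, 5.59 and 5.39 in control arrays (0.32 ± 0.137, adjusted p = 0.428). Every anti-AL078604.2 array lay above every control array in both lines. In SKBR3 the arrays overlapped, at 5.46, 5.02 and 5.21 with the anti-LINC01269 ASO, against 5.26, 5.05 and 5.00 in control arrays (0.13 ± 0.137, adjusted p = 0.830).

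The rise of MAP1LC3B on the mean of both anti-AL078604.2 responses (adjusted p = 0.0464) was close to the threshold. It passed in 1 of 12 fits that each left out 1 array, the 1 without replicate 1 of the anti-AL078604.2 arrays of MDA-MB-231 (adjusted p = 0.0253). The other omissions gave adjusted p up to 0.139, with a log2 difference of 0.35 to 0.45 over all 12. Its feature is dim, 0.27 to 0.33 above the median of all features in the control arrays of these lines. MAP1LC3B2 encodes a near-identical protein, so a share of signal between the 2 features cannot be told apart. The MAP1LC3B2 feature differed by 0.098 in MDA-MB-231 and -0.0073 in MDA-MB-468, and in SKBR3 it read 6.81, 6.42 and 6.53 in anti-LINC01269 arrays, against 5.96, 6.07 and 5.92 in control arrays (0.60 ± 0.149, adjusted p = 0.313).

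GABARAPL1 (feature 16748304) read 6.61, 6.85 and 7.24 in anti-AL078604.2 arrays of MDA-MB-231, against 6.58, 6.49 and 6.31 in control arrays (0.44 ± 0.140, adjusted p = 0.244). The groups did not overlap, but replicate 1 of the anti-AL078604.2 arrays was nearly level with the highest control array. Without it the difference was 0.59 (adjusted p = 0.0439), and without replicate 3 it was 0.27 (adjusted p = 0.756), with 1 of 6 omissions passing. Without replicate 1 the number of features called in MDA-MB-231 was 532, against 51 with all arrays. In MDA-MB-468, GABARAPL1 read 6.67, 6.35 and 6.22 in anti-AL078604.2 arrays, overlapping the control arrays at 6.28, 6.25 and 6.23 (0.16 ± 0.140, adjusted p = 0.754). GABARAPL2 (feature 16821076) ran the other way. It read 9.85, 9.89 and 9.87 in anti-AL078604.2 arrays of MDA-MB-231, against 10.02, 10.01 and 10.06 in control arrays (-0.16 ± 0.0802, adjusted p = 0.573). Values in MDA-MB-468 were 9.69, 9.76 and 9.85 in anti-AL078604.2 arrays, against 9.89, 9.96 and 9.96 in control arrays (-0.17 ± 0.0802, adjusted p = 0.477). All anti-AL078604.2 arrays lay below all controls in both lines, and the mean of both responses was -0.17 ± 0.0567 (adjusted p = 0.164). GABARAP itself differed by -0.053, -0.0005 and -0.034 in MDA-MB-231, then MDA-MB-468, then SKBR3.

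**Figure D3:**
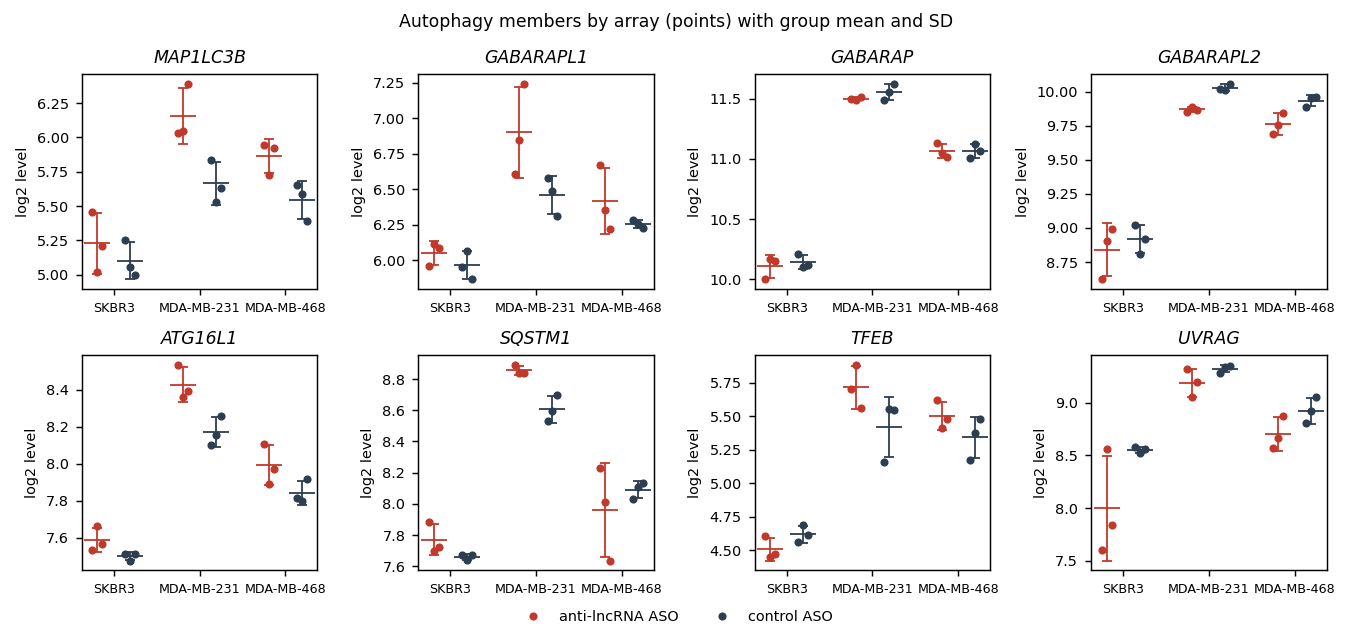
Log2 level in each of 18 arrays (points) of 7 autophagy genes and TFEB, with group mean and SD (n = 3 per group), anti-lncRNA ASO left of control ASO. MAP1LC3B lies above every control array in MDA-MB-231 and MDA-MB-468, and 1 anti-LINC01269 array of UVRAG sits at 8.56, level with its controls.

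Cargo receptors link ubiquitinated cargo to ATG8 proteins, and 3 of 4 were measured. SQSTM1 (feature 16993458), which encodes p62, read 8.89, 8.84 and 8.84 in anti-AL078604.2 arrays of MDA-MB-231, against 8.53, 8.59 and 8.70 in control arrays (0.25 ± 0.107, adjusted p = 0.460). In MDA-MB-468 it read 8.23, 8.01 and 7.64 in anti-AL078604.2 arrays, against 8.03, 8.11 and 8.14 in control arrays (-0.13 ± 0.107, adjusted p = 0.733). The groups were apart in MDA-MB-231 and overlapped in MDA-MB-468, where the anti-AL078604.2 arrays were widely spread. TAX1BP1 (feature 17044568) read 9.69, 10.28 and 10.09 in anti-LINC01269 arrays of SKBR3, against 10.33, 10.33 and 10.25 in control arrays (-0.28 ± 0.112, adjusted p = 0.487). As for UVRAG, replicate 2 of the anti-LINC01269 arrays was level with the controls and the other arrays lay below them, and the difference was -0.12 without replicate 1. TAX1BP1 differed by -0.21 in MDA-MB-231, where its groups did not overlap, and by -0.037 in MDA-MB-468. OPTN (feature 16702547) read 7.22, 7.03 and 7.36 in anti-LINC01269 arrays of SKBR3, against 6.97, 7.16 and 7.01 in control arrays (0.16 ± 0.0977, adjusted p = 0.658). These overlapped, and OPTN differed by 0.15 in MDA-MB-231 and 0.22 in MDA-MB-468 (adjusted p of 0.707 and 0.442).

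Groups that do not overlap were counted for all members. In SKBR3, 4 members lay higher and 1 lower in every anti-LINC01269 array than in every control array (17.2%), against 7.28% and 4.26% of features (11.5% in all). In MDA-MB-231, 10 lay higher and 4 lower (48.3%), against 9.28% and 7.87% (17.2% in all). In MDA-MB-468, 3 lay higher and 4 lower (24.1%), against 8.41% and 8.5% (16.9% in all). Over both of these lines, CTSL and MAP1LC3B were apart and higher and GABARAPL2 was apart and lower, 3 of 29 members, against 1.43% of features higher in both and 1.35% lower in both (2.78% in all). No member did so in opposite directions. Among tested features with a symbol, groups did not overlap for 12.4% in SKBR3, 20.2% in MDA-MB-231 and 19.4% in MDA-MB-468.

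The responses to the anti-AL078604.2 ASO in MDA-MB-231 and MDA-MB-468 were compared directly. No member passed on the difference, as did 0% of features, and 1 of 29 lay higher and 0 lower at an unadjusted p under 0.05 (3.45%), against 2.36% and 1.81% of features (4.16% in all). That was SQSTM1, whose response was higher in MDA-MB-231 by 0.38 ± 0.152 (adjusted p = 0.998). HEXA, TFE3 and GABARAPL1 differed by 0.28 each, and ATG3 went the other way, by -0.12. The difference was above 0 for 21 of 29 members, with a median of 0.084, beside 52.5% and 0.011 for all features, and for all 6 proteases. Replicate 3 of the anti-AL078604.2 arrays of MDA-MB-468 was the lowest of its line's 6 arrays for 10 of 29 members (26.3% of all features) and the highest for 7 (22.0%). Replicate 1 of the same group was the highest for 12 members (22.3%) and the lowest for 6 (17.6%). The median of the difference was 0.057 without replicate 3, and 0.057 to 0.11 over all single omissions.

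Control levels of the list were also described between lines after quantile normalization of all arrays. The array medians leave it possible that the lines were scaled separately before deposit, which this step would not undo gene by gene, so these orders are a description only. The members were highest in SKBR3 for 12 genes, in MDA-MB-231 for 9 and in MDA-MB-468 for 8, and of these 5, 6 and 4 had all control arrays above those of the other lines. The median range between lines was 0.28 for the members and 0.37 for all features. CTSL ranged most, by 0.81, then ASAH1 by 0.78, GABARAP by 0.56, NEU1 by 0.55 and LAMP1 by 0.53.

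Further genes of lysosome, autophagy and endocytosis came from 8 lists of 176 genes, of which 102 had a feature and 100 were tested. The lists were chosen with earlier results of these data known, so their counts beside those of all features are a description only. None passed in SKBR3, MDA-MB-468 or the difference, 1 fell in MDA-MB-231 (against 0.0737% of features), and for the mean of both anti-AL078604.2 responses 1 rose and 5 fell, against 0.703% of features that rose and 0.898% that fell. MTOR, the kinase of mTORC1, read 8.96, 8.36 and 8.06 in anti-AL078604.2 arrays of MDA-MB-231, against 9.10, 9.16 and 9.20 in control arrays. Levels in MDA-MB-468 were 8.19, 8.40 and 8.71 in anti-AL078604.2 arrays, against 9.15, 9.15 and 9.13 in control arrays. No anti-AL078604.2 array reached its controls, and the mean response fell by 0.70 on the log2 scale (SE 0.113, adjusted p = 0.00725), with adjusted p of 0.0988 and 0.178 in the single lines. MTOR differed by -0.073 in SKBR3.

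EPS15L1, an adaptor of clathrin-coated pits, read 9.33, 8.93 and 8.70 in anti-AL078604.2 arrays of MDA-MB-231, against 9.66, 9.67 and 9.54 in control arrays (-0.63 ± 0.120, adjusted p = 0.0456). That call held in 1 of 6 fits that each left out 1 array, the 1 without replicate 1 of the anti-AL078604.2 arrays. Levels in MDA-MB-468 were 8.52, 8.58 and 8.85 in anti-AL078604.2 arrays, against 9.12, 9.10 and 9.21 in control arrays. The groups were apart in both lines, and the mean response fell by 0.56 (SE 0.0847, adjusted p = 0.00484). TSC2, the GTPase-activating protein that restrains mTORC1, fell by 0.39 on the mean of both responses (adjusted p = 0.0172). TOLLIP, a ubiquitin-binding adaptor, fell by 0.45 (adjusted p = 0.0192), and AMBRA1, an autophagy initiation factor, fell by 0.38 (adjusted p = 0.0349). CAVIN1, a coat protein of caveolae, rose by 0.45 (adjusted p = 0.0218). With single arrays left out, MTOR and EPS15L1 passed in 12 of 12 fits, TSC2 in 10, CAVIN1 in 6, TOLLIP in 5 and AMBRA1 in 2. The calls of TOLLIP, CAVIN1 and AMBRA1 were also lost in the within-line fit (adjusted p = 0.0511, 0.0511 and 0.0735), and that of AMBRA1 without the filter (0.0583).

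**Figure D4:**
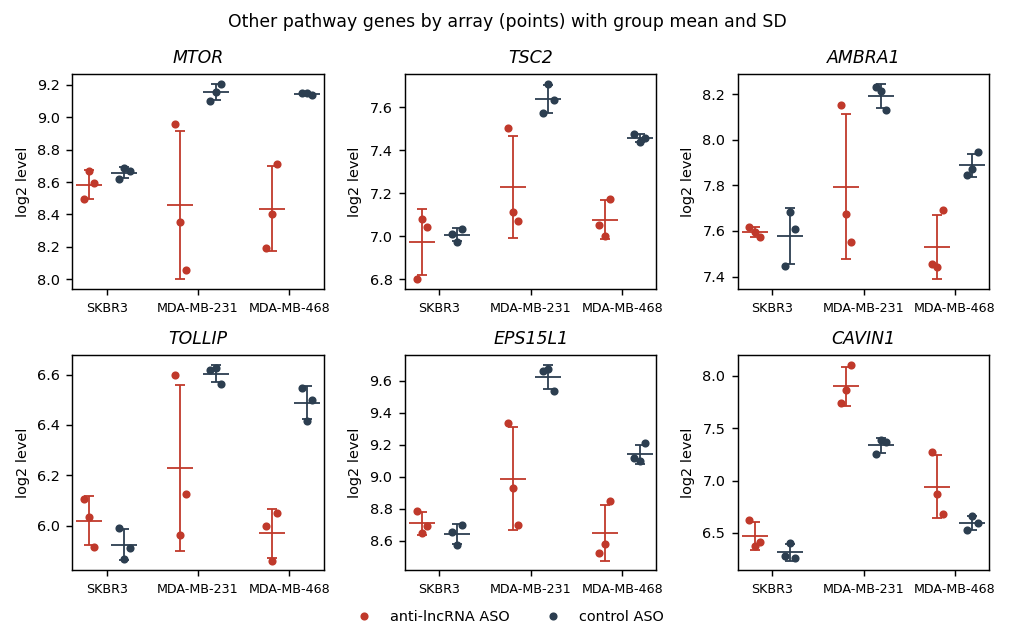
Log2 level of 6 further pathway genes in each of 18 arrays (points), with group mean and SD (n = 3 per group), anti-lncRNA ASO left of control ASO. By group mean, all but CAVIN1 lie lower with the anti-AL078604.2 ASO in MDA-MB-231 and MDA-MB-468. In MDA-MB-231 replicate 1 of that group lies nearest the controls, and within their range for TOLLIP and AMBRA1.

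Other lysosomal hydrolases were tested for 18 genes, and none passed. In MDA-MB-468, 16 of 18 lay below 0, with a median of -0.11, beside -0.0035 for all features, and with each array left out 12 to 17 did (medians -0.13 to -0.059). The fewest came without replicate 3 of the anti-AL078604.2 arrays. SGSH, a heparan sulfatase, differed by -0.33 and the arylsulfatase ARSB by -0.18. In MDA-MB-231, 12 of 18 lay below 0, with the cathepsin CTSF at 0.31 and the galactose sulfatase GALNS at -0.31. In SKBR3, 11 of 18 lay below 0, with HGSNAT at -0.32 and GALNS at 0.25. HGSNAT is on this list although it encodes an acetyltransferase and not a hydrolase. The responses of MDA-MB-231 and MDA-MB-468 differed by 0.37 for CTSF and 0.28 for CTSS, and their mean was -0.23 for SGSH and -0.18 for ARSB.

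Among 11 other lysosomal membrane genes, CD68 differed by 0.47 in MDA-MB-231 and 0.38 in MDA-MB-468 (mean 0.42, adjusted p = 0.0646). TPCN1, a two-pore channel, differed by -0.27 in MDA-MB-468 and -0.21 on the mean, and the channel TMEM175 by -0.23 in MDA-MB-231. TMEM192 and LAMP3 differed by 0.23 and 0.16 in SKBR3, and the differences between lines were 0.11 for TPCN1 and -0.091 for MFSD8. Among 22 other autophagy genes, ATG13 differed by 0.24 in MDA-MB-231 and RB1CC1 by 0.23 in MDA-MB-468 and 0.23 on the mean, both subunits of the ULK1 complex. TMEM41B differed by -0.16 in SKBR3, and the responses of the lines differed by 0.31 for ULK2 and 0.18 for ATG14. None of these genes passed.

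Among 9 other cargo receptors, the mitophagy receptor BNIP3 differed by 0.50 in MDA-MB-468 and 0.18 in SKBR3, and WDFY3 by -0.22 in MDA-MB-231 and -0.26 in SKBR3. The lines' responses differed by -0.36 for BNIP3L, a relative of BNIP3, and -0.20 for SEC62, and the mean for BNIP3 was 0.33. Among 17 genes of nutrient sensing and TFEB control, RRAGD, a GTPase that recruits mTORC1, differed by 0.19 in SKBR3, and MITF, a relative of TFEB, by 0.38. The lines' responses differed by -0.20 for RRAGD and 0.14 for TSC1. Among 15 genes of endosomal sorting, IGF2R, a receptor for lysosomal enzymes, differed by -0.16 in MDA-MB-231, and VPS18 by 0.25 there and 0.24 in SKBR3. VPS41 and VPS26A differed by -0.24 and 0.11 in MDA-MB-468, and EEA1 by -0.27 in SKBR3. The mean was -0.22 for VPS41 and -0.14 for IGF2R, and the lines differed by 0.31 for VPS18 and 0.17 for VPS39. Among 8 genes of endocytic entry, EPS15 and EPN1 differed by -0.16 and 0.12 in SKBR3, and the lines differed by 0.15 for EPN1. None of the genes named here passed. Omission of single arrays moved 20 of 63 named values of the 8 lists that had not passed by over 1.5 times, with 0 turning sign. BNIP3 ranged from 0.023 to 0.29, WDFY3 from -0.38 to -0.076 and EEA1 from -0.45 to -0.074 in SKBR3, and TMEM175 from -0.32 to -0.064 in MDA-MB-231.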

How the data were processed

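The 18 cell line RNA samples were hybridized to Human Gene 2.0 ST arrays (Affymetrix). Per the submitters' processing notes, the authors used Transcriptome Analysis Console on the scans, with a version, normalization and build not given in the sources used here. Deposited values are taken as log2 levels per feature (transcript cluster) because of their range, 0.41 to 13.84, as the scale is unnamed.

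Symbols came from GEO's platform annotation, updated through a RefSeq table of GRCh38.p14. A gene had 1 feature, that with the highest mean over 18 arrays. Features with a mean above the median of at least 1 of 6 groups were kept. limma 3.58.1 in R 4.3.3 fitted group means over the 18 arrays (eBayes with trend, 12 residual and 4.33 prior degrees of freedom). Two-sided p-values were adjusted by Benjamini-Hochberg over 29855 features and called at 0.05. Compared were each anti-lncRNA ASO with its line's control, and the difference and the mean of both anti-AL078604.2 responses, which reuse the same arrays. The procedure was tested on simulated arrays with normal noise. Of 67 changes of 1.5-fold, it recovered 30 in SKBR3, 36 in MDA-MB-231 and 29 in MDA-MB-468. Of 67 changes of 2-fold, it recovered 61, 57 and 58 in the same order. Changes of 1.5-fold can therefore be missed. Precision is limited by the number of arrays.

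The members and lists were chosen with earlier results of these data known. Values by array are given for members that passed, the 4 smallest p in each line, those apart from controls the same way in MDA-MB-231 and MDA-MB-468, and TFEB and TFE3. Of the other lists, genes that passed and the 2 smallest p per list and comparison are named. MAP1LC3B2 by array and the other genes of the list were named beyond this rule. No pair of arrays held identical values. Alternatives were the filter, quantile normalization, a within-line fit, no intensity trend, a replicate block, the mean of a gene's features and the omission of single arrays.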

Additional observations from a re-analysis of the deposited data

How the results depend on the processing

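The number of features called depended on the setting. The filter, the within-line fit, the intensity trend and the replicate block alter only the spread or the set of features tested. A gene's log2 difference cannot move under these settings, so its steadiness there was fixed in advance. With all arrays the number called was 0 in SKBR3, 51 in MDA-MB-231, 2 in MDA-MB-468, 0 for the difference and 478 for the mean. Without the filter it was 1 in SKBR3, 28 in MDA-MB-231 and 263 for the mean. The within-line fit gave 3 in MDA-MB-231, 0 in MDA-MB-468 and 259 for the mean, and the fit without an intensity trend gave 26 in MDA-MB-231. Same-numbered arrays correlated at -0.12 to 0.10 in their deviations, so the numbers were not taken to pair them, and the replicate block gave 0 in MDA-MB-231, 0 in MDA-MB-468 and 113 for the mean. Omission of single arrays gave 0 to 231 in SKBR3 (231 without anti-LINC01269 replicate 2), 0 to 532 in MDA-MB-231 (532 without anti-AL078604.2 replicate 1), 0 to 12 in MDA-MB-468 (12 without anti-AL078604.2 replicate 3) and 91 to 1431 for the mean (1431 without anti-AL078604.2 replicate 1 of MDA-MB-231). The call of MAP1LC3B on the mean was lost without the filter (adjusted p = 0.0800), in the within-line fit (0.0588) and with the replicate block (0.0919). Its log2 difference was the same, as these settings cannot change it. The median over the members in SKBR3 was -0.027 under quantile normalization. With arrays omitted, it was 0.057 to 0.11 for the difference and -0.035 to 0.021 for the mean. Single omissions moved 11 of 30 named values of members that had not passed by over 1.5 times. The sign of TFE3 in MDA-MB-468 turned to 0.024 in 1 omission, over a range of -0.28 to 0.024. Of the other lists' calls, EPS15L1 in MDA-MB-231 was lost in 4 of these settings (adjusted p of 0.0719 to 0.178). On the mean, MTOR and EPS15L1 passed in 7 of 7 settings other than omissions, TSC2 in 6, CAVIN1 and TOLLIP in 5 each and AMBRA1 in 4. Of the 7, the mean of a gene's features leaves the values of these genes unchanged, as each has 1 feature. It therefore adds no check to these counts. The replicate block lost TSC2 (0.0716), CAVIN1 (0.0713), TOLLIP (0.0589) and AMBRA1 (0.0713). Without anti-AL078604.2 replicate 1 of MDA-MB-231, AMBRA1, CAVIN1, CD68, GALNS, MTOR, TOLLIP and TSC2 passed in that line, and CD68, RB1CC1, SGSH and GABARAPL1 passed on the mean. Without anti-AL078604.2 replicate 3 of MDA-MB-468, VPS41 passed on the mean. The stricter filter removed TFEB and, of the genes named from the other lists, MITF. The mean of features could change no member, as each has 1 feature. The causes were not tested. The omissions for hydrolases were added after seeing the data. Dim features such as TFEB and MAP1LC3B limit what the arrays resolve.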
